A study of Mus musculus with 2 samples.

Results

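The interleukin-1 family genes described here are the ligands Il1a, Il1b and Il18, the secreted antagonists Il1rn and Il18bp, and the receptor chains Il1r1, Il1r2 and Il1rap. They were taken by name, 8 of the 55536 annotated genes in the tables, and each name matched 1 gene identifier. RNA was measured in macrophages grown from the bone marrow of C57BL/6J mice, in a fraction that 1 label calls nucleoplasmic and others nuclear. The cells had 100 ng/ml of lipid A, a TLR4 ligand and the lipid anchor of lipopolysaccharide, for 12 h, then 12 h without it, then 100 ng/ml of lipid A again for 25 min. Total RNA was depleted of ribosomal RNA and sequenced. The 2 libraries are biological replicates of this 1 group by their labels and share 1 donor entry, so their spread may be technical. Starting RNA was 500 ng for replicate 1 but 1 µg for replicate 2, and an effect of that amount cannot be told apart from the replicates themselves. Samples without lipid A, with a single exposure or of the cytoplasm were not analysed here, so no value below is a response to lipid A.

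Interleukin-1 alpha and interleukin-1 beta are made as precursors that lack a conventional signal peptide. Interleukin-1 beta and interleukin-18 are cut by caspase-1 in inflammasomes and leave the cell through gasdermin D pores. Both interleukin-1 forms bind the receptor IL1R1, which recruits the accessory chain IL1RAP and signals through MyD88 and IRAK kinases, the route TLR4 also uses. The receptor antagonist IL-1RA occupies IL1R1 without signalling, IL1R2 is a decoy that binds ligand without signalling, and IL-18BP holds interleukin-18 away from its own receptor. In macrophages, Il1a and Il1b are known as genes that lipopolysaccharide switches on quickly.

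Several of the results concern transcripts that differ at 1 exon boundary, so those boundaries are printed first, from the GENCODE M21 transcripts on GRCm38. Each line runs 5′ to 3′ in the direction of transcription, with the last 24 bases of the shared exon in lower case and the next 24 bases of that transcript in capitals. In Il1b the shared exon ends at chr2:129370284-129370307 on the minus strand. The protein-coding Il1b-201 continues into exon 3, and Il1b-203 continues into intron 2 (chr2:129369752-129370283, 532 bases).
Il1b-201: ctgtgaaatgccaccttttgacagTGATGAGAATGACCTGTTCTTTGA
Il1b-203: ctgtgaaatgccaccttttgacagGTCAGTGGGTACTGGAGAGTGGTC
In Il1rn the shared exon ends at chr2:24345548-24345571 on the plus strand. Il1rn-201 continues into its exon 2, and Il1rn-206 into a second exon that lies within intron 1 of Il1rn-201 and starts at chr2:24345943-24345966.
Il1rn-201: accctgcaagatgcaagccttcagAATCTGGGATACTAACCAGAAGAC
Il1rn-206: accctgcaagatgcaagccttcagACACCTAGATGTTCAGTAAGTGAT
In Il18bp the shared exon ends at chr7:102016043-102016066 on the minus strand. Il18bp-203 continues into its last exon, and Il18bp-202 reads on into the intron.
Il18bp-203: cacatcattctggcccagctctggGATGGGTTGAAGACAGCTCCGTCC
Il18bp-202: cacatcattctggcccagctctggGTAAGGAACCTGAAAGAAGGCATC
In Il1b-203 and Il18bp-202 the capitals begin with GT, the usual first bases of an intron.

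The libraries held 20196408 and 19588980 expected counts, and 14596 genes had at least 10 in each. Their counts in the libraries differed beyond sampling noise (chi-square over its degrees of freedom, 85.9), so these are separate libraries. TPM divides counts by effective transcript length and scales each table to a fixed total, and levels of different genes are compared only on it. Each library has tables made from alignments and a transcript table made from the reads directly, named here RSEM-layout and kallisto-layout after their columns. Values are from the former unless the latter is named. Macrophage markers were present, with 7 of 7 at 69.9 to 1640 TPM across both libraries. Of the neutrophil markers 2 of 10 reached 1 TPM in both libraries, Csf3r and Mmp8, with summed levels of 91.4 and 88.9 TPM, nearly all of it Csf3r, while Retnlg, Elane, Mpo, Cxcr2 and Ly6g were at 0 counts in each library (Cxcr2 had 2.21 and 0.43 TPM and Mpo 0.73 and 0.069 TPM in the kallisto-layout table). The other lists with members at 1 TPM were stromal and endothelial (2 of 8, Kdr and Pecam1), dendritic (1 of 5, Ccr7) and mast cell (1 of 6, Kit), and no lymphocyte marker of 7 reached it. In the kallisto-layout table the lymphocyte marker Cd3d had 6.96 and 1.01 TPM, against 0.07 and 0.03 TPM here.

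The ligands and the soluble antagonists were at 22.1 TPM or more in each library, and the receptor chains at 2.78 TPM or less. Of the 8 genes, 6 reached 1 TPM in both libraries, beside 22.4% of all annotated genes and 44.9% of the protein-coding genes of the nuclear genome. Il1r1 and Il1r2 did not. By the deposited posterior mean TPM the number was 7, with Il1r2 at 1.39 and 1.45, and in the kallisto-layout table it was 5. By mean TPM the order was Il1b, Il18bp, Il1a, Il1rn, Il18, Il1rap, Il1r2 and Il1r1. Among 22015 protein-coding genes, Il1b ranked 304 in replicate 1 and 856 in replicate 2, and Il1r1 ranked 11926 and 12150. In bulk RNA, fewer cells that make a message and less of it per cell cannot be told apart.

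**Figure D1:**
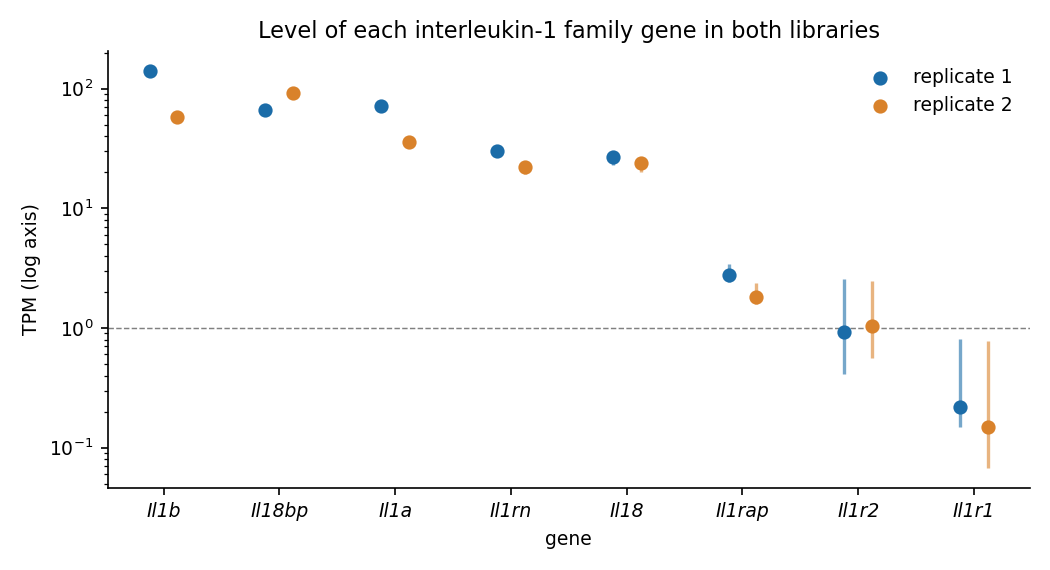
TPM (log axis) of each of the 8 genes in replicate 1 and replicate 2, with vertical lines for the deposited interval of the posterior mean and a dashed line at 1 TPM. Ligands and soluble antagonists lie between 22.1 and 141 TPM, and Il1rap, Il1r2 and Il1r1 between 0.15 and 2.78 TPM.

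Il1b, the gene of interleukin-1 beta (ENSMUSG00000027398.13, chromosome 2, 129364570 to 129371139, minus strand), was measured at 141 TPM in replicate 1 and at 57.5 TPM in replicate 2, from 2643 and 1101 expected counts. Its mean was 99.4 ± 59.3 TPM (SD, n = 2). The deposited intervals of its posterior mean TPM, 129.8 to 141 and 51.4 to 58.7, did not overlap, so the libraries lay further apart than the precision of either value. The level of these intervals is not given in the sources used here.

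Il1a, the gene of interleukin-1 alpha (ENSMUSG00000027399.1, chromosome 2, 129299610 to 129309972, minus strand), had 72.1 and 35.8 TPM from 2511 and 1394 counts. It too was higher in replicate 1, with a mean of 53.9 ± 25.6 TPM (SD, n = 2). Il1a lay below Il1b in both libraries. The difference Il1b minus Il1a was 0.96 and 0.67 on the log2(TPM + 1) scale, 0.81 ± 0.21 on average (SD, n = 2). With 2 libraries, the smallest p that sign flipping (exact, two-sided) allows is 0.5, here and for each difference below, so only the number of libraries with the same sign is given.

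That order rested on the noncoding Il1b transcripts in replicate 2. With protein-coding transcripts only, a setting chosen after seeing the data, Il1b minus Il1a was 0.48 in replicate 1 and -0.12 in replicate 2. The single annotated Il1a transcript shares 222 of its 1974 exonic bases with Gm14023, a noncoding gene on the opposite strand that had 976 and 610 counts. Reads within those 222 bases cannot be assigned to 1 strand from these tables, since the strand setting is not given in the sources used here.

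Both genes start close together on the chromosome, with 54597 bases between their nearer ends, and share a sequence feature upstream. The 80 bases before each annotated start, from RefSeq on GRCm38.p6, are shown because they are the start regions of the pair of interleukin-1 agonist genes, whose values are given above. Capitals mark TATAAA, the TATA box letters, searched on both strands of the 250 bases before each start.
Il1a, chr2:129309973-129310052, minus strand: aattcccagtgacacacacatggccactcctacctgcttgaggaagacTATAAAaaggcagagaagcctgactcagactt
Il1b, chr2:129371140-129371219, minus strand: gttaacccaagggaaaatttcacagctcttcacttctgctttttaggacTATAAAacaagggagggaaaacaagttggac
The letters begin at position -32 of Il1a and -31 of Il1b, counted from -1 at the base before the start. All 8 genes matched the promoter table, with 11 annotated starts in all. Besides Il1a and Il1b, only the Il18 window held TATAAA, on the opposite strand at position -175. Of all 32851 promoters of that length, 12.4% held it on either strand. Other starts of the 8 genes, beyond the 11 searched, were not examined.

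Transcripts of Il1b were split between the spliced message and the form that keeps intron 2. Il1b-201, the 7-exon transcript of 1356 bases that encodes 269 residues, had 101 and 32.9 TPM. Il1b-203, 689 bases with exon 1, exon 2, intron 2 and the first bases of exon 3, had 39.6 and 23.7 TPM. Il1b-203 thus took 28.0% of Il1b TPM in replicate 1 and 41.2% in replicate 2, where Il1b as a whole was lower. The spliced transcript was the more unequal of the pair, with a log2 ratio of replicate 2 over replicate 1 of -1.58 against -0.72 for Il1b-203.

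The share of Il1b TPM on transcripts not annotated as protein coding was 35.7 ± 9.88% (SD, n = 2). It was 19.0% of expected counts, since the short transcript weighs less by counts, and 53.8% of TPM in the kallisto-layout table. In that table the 379-base Il1b-202 had 23.9 and 4.46 TPM, against 1.07 and 0.88 TPM in the RSEM-layout table. A retained-intron share of at least 20% of TPM was common. Of 6848 protein-coding genes with such a transcript annotated and at least 10 counts in each library, 51.5% had that share in both. The medians over these genes were 24.9 and 26.0%, below the 28.0% and 41.2% of Il1b. How many genes reached the shares of Il1b was not counted. In these tables, pre-mRNA still being spliced and a stable transcript that keeps the intron cannot be told apart. Other introns of Il1b are not counted, since no annotated transcript keeps them. The antisense gene Il1bos shares 25 exonic bases with Il1b-203, all in intron 2.

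**Figure D2:**
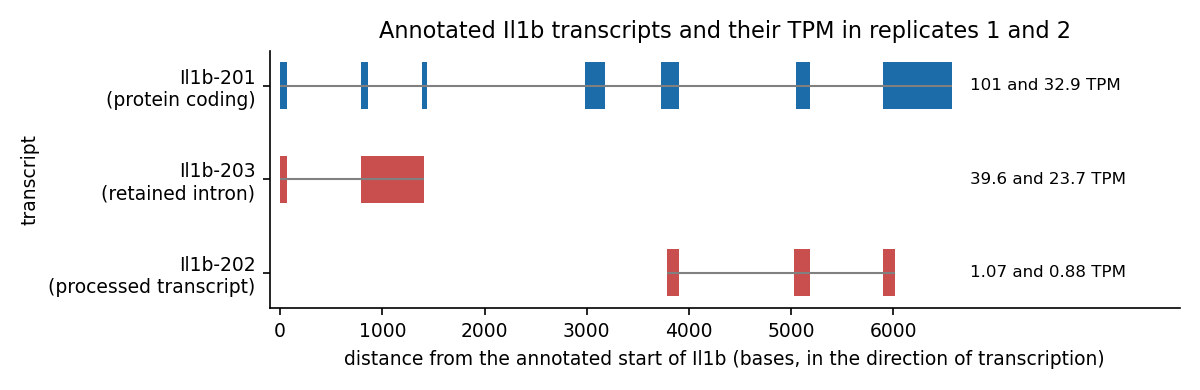
The 3 annotated Il1b transcripts by distance from the annotated start (bases, in the direction of transcription), with boxes for exons, lines for introns, and TPM in replicates 1 and 2 at the right. The wide second box of Il1b-203 covers exon 2, the 532 bases of intron 2 and the first bases of exon 3.

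Il1rn, the gene of the receptor antagonist IL-1RA (ENSMUSG00000026981.15, chromosome 2, 24336853 to 24351494, plus strand), had 29.9 and 22.1 TPM, again higher in replicate 1, from 919 and 684 counts. Its mean was 26.0 ± 5.58 TPM (SD, n = 2), and it lay below both agonists in each library. Il1b exceeded it 4.72-fold in replicate 1 and 2.61-fold in replicate 2, a difference of 1.77 ± 0.61 on the log2(TPM + 1) scale (SD, n = 2), with the same sign in both libraries.

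The gene makes a secreted form and intracellular forms from separate starts. Il1rn-201, whose 178 residues are the length of the secreted precursor, had 18.9 and 10.9 TPM, 63.2% and 49.3% of the gene. Il1rn-204, which starts upstream at position 24336853 and encodes the 159 residues of an intracellular form, had 4.29 and 3.55 TPM, 14.3% and 16.1%. The transcript of the secreted form was thus the higher of these in both libraries. The processed transcript Il1rn-206, whose boundary is printed above, had 6.53 and 6.78 TPM, 21.8% and 30.8%, from 54 and 66 counts. Il1rn-203, the only Il1rn transcript annotated as a retained intron, took 0.65% and 0.53%, far below the medians over such genes given for Il1b. In all, 26.9 ± 6.25% of Il1rn TPM (SD, n = 2) but 8.72% of its expected counts lay on transcripts not annotated as protein coding, and 40.3% of TPM in the kallisto-layout table.

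**Figure D3:**
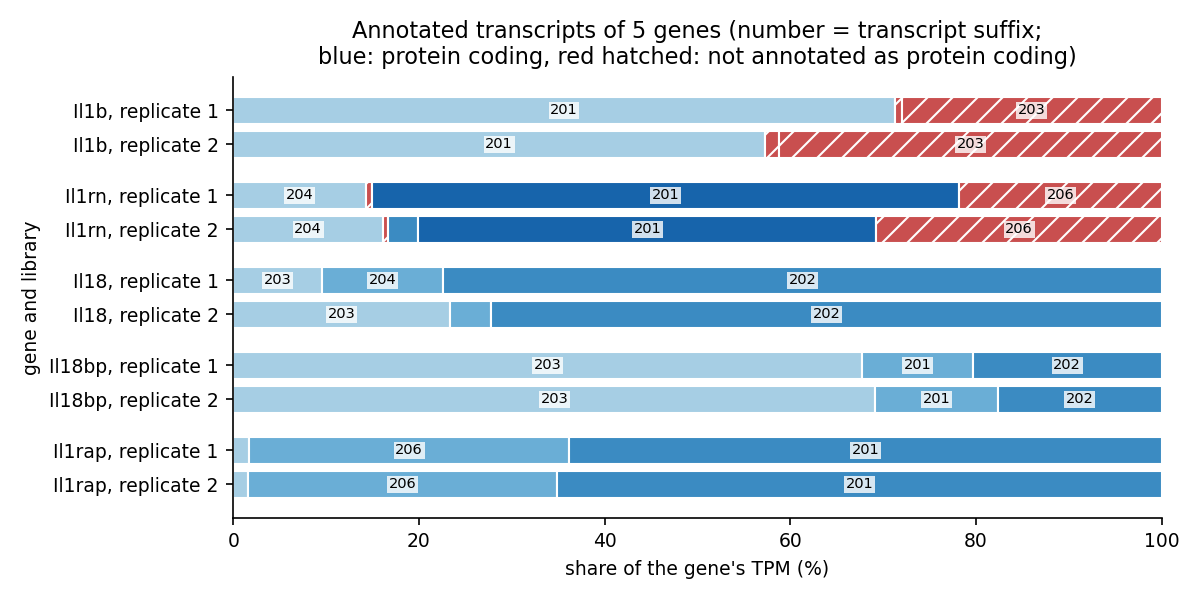
Share of each gene's TPM (%) on its annotated transcripts for 5 genes and both libraries, in blue for protein-coding and red hatching for other transcripts, with those above 8% labelled by suffix. Il1b and Il1rn carry the red shares, with 28.0% and 41.2% on Il1b-203 and 21.8% and 30.8% on Il1rn-206.

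By RNA level, the gene of interleukin-18 was exceeded by the gene of its own inhibitor. Il18 (ENSMUSG00000039217.13, chromosome 9, 50554827 to 50581840, plus strand) had 26.9 and 23.7 TPM from 278 and 292 counts, 25.3 ± 2.28 TPM (SD, n = 2). Il18bp, the gene of the interleukin-18 binding protein (ENSMUSG00000070427.4, chromosome 7, 102014885 to 102018690, minus strand), had 66.3 and 91.5 TPM from 2033 and 3081 counts, 78.9 ± 17.8 TPM (SD, n = 2). Il18bp was 2.46-fold and 3.86-fold higher than Il18, a difference of 1.59 ± 0.45 on the log2(TPM + 1) scale (SD, n = 2), with the same sign in both libraries. So, by RNA level, the antagonist gene was the lower partner for interleukin-1 beta and the higher partner for interleukin-18 in each library. Protein was not measured here.

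Of the Il18 transcripts, ENSMUST00000180021.1 (702 bases, 192 residues) had 20.9 and 17.1 TPM. ENSMUST00000213916.1, which starts furthest upstream and has a shorter annotated coding sequence of 78 residues, had 2.59 and 5.54 TPM, and ENSMUST00000214117.1, with the 192-residue length, had 3.49 and 1.05 TPM. ENSMUST00000213916.1 had 34 and 84 counts and ENSMUST00000214117.1 44 and 15, so their order was opposite in the libraries in the RSEM-layout table. Their deposited intervals overlapped in replicate 1 but not in replicate 2. In the kallisto-layout table ENSMUST00000214117.1 was the higher in both libraries, with 5.58 and 1.30 TPM against 2.59 and 1.27 TPM. ENSMUST00000059081.12 has the same ends and length as ENSMUST00000180021.1 and was given 0 TPM in the RSEM-layout table. In the kallisto-layout table it had 6.07 and 1.05 TPM, against 2.35 and 0.62 TPM for ENSMUST00000180021.1, so the level of either alone is uncertain.

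For Il18bp, Il18bp-203 (193 residues) had 44.9 and 63.3 TPM, 67.8% and 69.2% of the gene. Il18bp-202, which reads through the boundary printed above, had 13.5 and 16.2 TPM, 20.4% and 17.7%. It is annotated as protein coding, with 194 residues, although it holds sequence that is intronic in Il18bp-203, so the Il18bp share outside protein-coding transcripts is 0 by annotation. Il18bp-201 (193 residues) had 7.87 and 12.1 TPM. The shares of these 3 transcripts moved by under 3 percentage points between the libraries in the RSEM-layout table. In the kallisto-layout table Il18bp-201 had 14.7% and 31.3% of the gene and Il18bp-203 had 61.2% and 50.1%. The last exon of Il18bp-203 shares 80 bases with Numa1 on the opposite strand, which had 3108 and 3779 counts.

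Receptor chains were the lowest members. Il1rap, the accessory chain shared by several receptors of the family (ENSMUSG00000022514.14, chromosome 16, 26581704 to 26730117, plus strand), had 2.78 and 1.81 TPM from 195 and 142 counts, 2.29 ± 0.69 TPM (SD, n = 2). Il1rap-201, which encodes 570 residues, took 63.8% and 65.1% of it, and Il1rap-206, with a shorter coding sequence of 360 residues, took 34.5% and 33.3%. Il1rap-202, with the longest coding sequence, 685 residues, had 0.05 and 0.03 TPM. The transcript shares of Il1rap therefore differed by under 2 percentage points in the RSEM-layout table, although its TPM was lower in replicate 2. In the kallisto-layout table Il1rap-201 had 70.0% and 66.2% of the gene and Il1rap-206 had 28.7% and 32.3%.

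Il1r1, the signalling receptor of interleukin-1 (ENSMUSG00000026072.12, chromosome 1, 40225080 to 40317257, plus strand), had 0.22 and 0.15 TPM from 20 and 9 counts. Il1r2, the decoy receptor (ENSMUSG00000026073.13, chromosome 1, 40074079 to 40125231, plus strand), had 0.93 and 1.04 TPM from 6 and 10 counts. The higher TPM of Il1r2 came with fewer counts in replicate 1, because 73.9% and 73.3% of it lay on ENSMUST00000194913.1, a 366-base annotated fragment with 2 and 3 counts. The 410-residue Il1r2 transcript ENSMUST00000027243.12 had 0 and 6.04 expected counts, and ENSMUST00000195770.1, annotated for nonsense-mediated decay, had 4 and 0.96. For Il1r1, ENSMUST00000114795.2 (573 residues) had 20 and 8.59 expected counts, and the processed transcript ENSMUST00000195402.1 had 0 and 0.41. The kallisto-layout table gave ENSMUST00000114795.2 0 counts and put 73 and 30.0 on ENSMUST00000027241.10 (576 residues), which had 0 in the RSEM-layout table, so which Il1r1 transcript is present is uncertain. The difference Il1r2 minus Il1r1 was 0.74 ± 0.12 on the log2(TPM + 1) scale (SD, n = 2), but the deposited intervals overlapped, with 0.41 to 2.57 for Il1r2 and 0.15 to 0.81 for Il1r1 in replicate 1. At this depth the order of these receptors is not resolved. Il1rap exceeded Il1r1 12.6-fold and 12.1-fold, a difference of 1.46 ± 0.24 on the log2(TPM + 1) scale (SD, n = 2), and their intervals did not overlap in either library. The size of that fold is uncertain, since the posterior means were 2.93 and 1.97 TPM for Il1rap against 0.41 and 0.35 TPM for Il1r1. The kallisto-layout table gave 1.56 and 0.28 TPM against 0.26 and 0.092 TPM. Genes that mark neutrophils, in which Il1r2 is known to be abundant, were at the levels given above, and their part in the Il1r2 counts was not tested.

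Of the neighbours in the order of mean TPM, 3 pairs changed places between the libraries. Il18bp was below Il1b and Il1a in replicate 1 and above both in replicate 2, and Il1rn was above Il18 in replicate 1 and below it in replicate 2. The deposited intervals of Il1rn and Il18 overlapped in both libraries, so their order is not resolved. In replicate 1 those of Il18bp (60.7 to 67.0) and Il1a (66.2 to 71.6) overlapped too, so the order of that pair is not resolved there. In the kallisto-layout table Il18bp stayed below Il1b in replicate 2 (14.4 and 14.7 TPM), and Il1rn was above Il18 in both libraries (26.4 and 16.6 TPM, then 4.96 and 4.24 TPM). The other 4 neighbouring pairs kept their order in both libraries without overlap of their TPM values: Il1a over Il1rn, Il18 over Il1rap, Il1rap over Il1r2 and Il1r2 over Il1r1. For the last 2 of these the deposited intervals overlapped in both libraries, so the order of those neighbours is not resolved. Il1rap and Il1r2 had 0.283 and 0.289 TPM in replicate 2 of the kallisto-layout table, the opposite order. The widest step was that from Il18 to Il1rap, 11.0-fold by mean TPM.

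Between the libraries, Il1b and Il1a were lower in replicate 2 and Il18bp was higher. The log2 ratios of all detected genes had a median of -0.21 on the TPM scale, so values relative to that median are given too. Il1b had a log2 ratio of -1.28, or -1.07 relative to the median, and was the single member lower by at least 2-fold of the 6 with at least 10 counts in each library. Over all 14596 such genes 2.81% were lower by that much and 1% were higher. Il1a was just inside the threshold with -0.99, or -0.78 relative to the median. The Il1b ratio was -1.10 by TMM-normalised CPM but -0.94 in the kallisto-layout table on the protein-coding scale, where no member passed 2-fold and 2.79% of all such genes were lower by that much.

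Il18bp had the highest ratio, 0.46, or 0.67 relative to the median, and none of the 6 was higher by 2-fold. By TMM-normalised CPM, where Il18bp had 0.74, none was either, beside 2.51% of all such genes. Il1rn and Il1rap had -0.42 and -0.43, or -0.22 each relative to the median. Il18 had -0.18 on the TPM scale and 0.20 by TMM-normalised CPM, so its direction flips with the scale, and relative to the median it had 0.03. These are differences between 1 library and 1 other, with no replicate check.

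**Figure D4:**
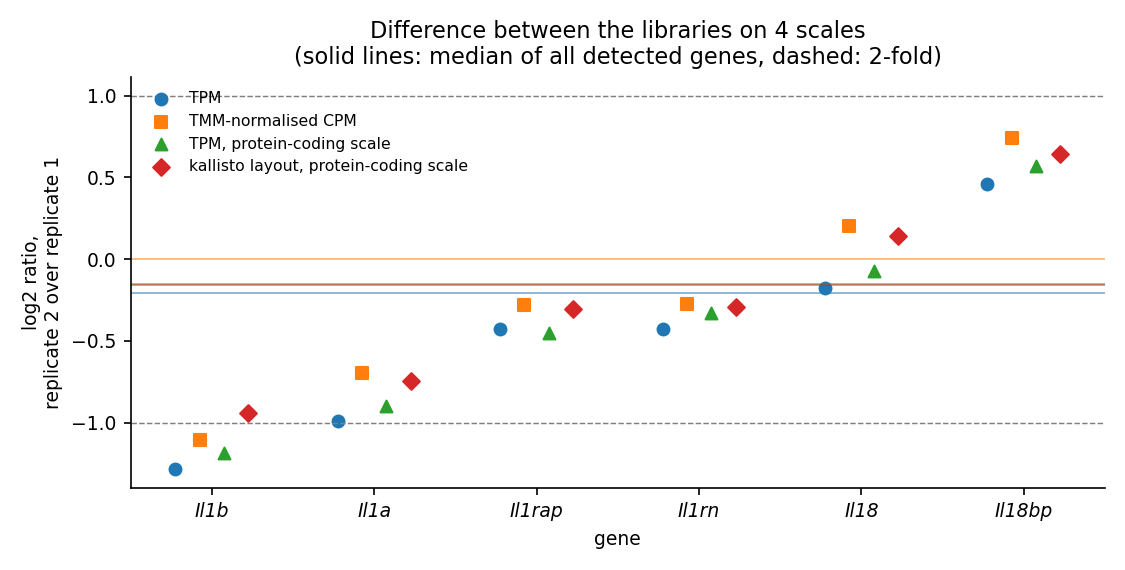
Log2 ratio of replicate 2 over replicate 1 for the 6 genes with 10 or more expected counts in both libraries, on 4 scales, with solid lines at the median of all detected genes on each scale and dashed lines at 2-fold. Il1b is lowest and Il18bp highest on each scale, and Il1b lies past 2-fold on 3 of the 4.

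The rest of the interleukin-1 family was at 1.65 TPM or less in the RSEM-layout table. Of the 6 other ligand genes found, Il33, Il1f6, Il1f8, Il1f9 and Il1f10 had 0 expected counts in both libraries, which allows up to 3 counts in each, and Il1f5 had 0 and 1. Il1f9 nevertheless had 1.62 and 0.41 TPM in the kallisto-layout table. None of the 7 other receptor genes reached 1 TPM in both libraries, beside 44.9% of the protein-coding genes of the nuclear genome. Il1rl2, the interleukin-36 receptor, had 1.65 and 0.97 TPM, Sigirr, an inhibitory family member, had 0.36 and 0.55 TPM, and Il18rap, the accessory chain for interleukin-18, had 0.41 and 0.35 TPM. Il18r1, which binds interleukin-18, had 0 and 2 counts. The kallisto-layout table gave higher values in replicate 1 for some of these, with 3.75 and 0.86 TPM for Il18rap, 2.79 and 0.37 TPM for Il18r1 and 4.91 and 0.91 TPM for Il1rapl2, which had 0 counts in the RSEM-layout table.

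By position, Il1r2, Il1r1, Il1rl2, Il1rl1, Il18r1 and Il18rap were the 6 protein-coding genes in 477627 bases of chromosome 1, and none of the 10 annotated genes there reached 1 TPM in both libraries. Between Il1f8 and Il1rn on chromosome 2, in 198334 bases with 10 annotated genes, Il1rn alone reached it. Il1a and Il1b are the 2 protein-coding genes of a separate stretch of 71530 bases on the same chromosome. Over all annotated genes, 22.4% reached 1 TPM in both libraries.

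By contrast, the genes that carry the receptor's signal and those that process and release the cytokines were measured throughout. All 14 signalling genes and all 12 processing genes reached 1 TPM in both libraries, at 4.84 to 74.3 TPM and 6.13 to 95.2 TPM in replicate 1 and at 3.12 to 61.9 TPM and 4.31 to 140.1 TPM in replicate 2. Of the protein-coding genes of the nuclear genome 44.9% reached it. Both lists were written with earlier results of these data known. The signalling list was led by the ubiquitin ligase Peli1 (68.1 and 61.9 TPM), the ubiquitin-conjugating enzyme Ube2n (74.3 and 33.2 TPM) and the TAK1 adaptor Tab2 (61.0 and 45.1 TPM). Ube2n was the 1 of 14 lower by at least 2-fold in replicate 2, with a log2 ratio of -1.14, and had -0.58 by TMM-normalised CPM. Over all detected genes, 2.81% were lower by that much on the TPM scale. The processing list was led by the pore protein gene Gsdmd (85.9 and 140.1 TPM), the DNA sensor gene Aim2 (95.2 and 96.2 TPM) and the inflammatory caspase gene Casp4 (66.7 and 68.0 TPM). None of its 12 members passed 2-fold in either direction on the TPM scale, while Gsdmd had a log2 ratio of 1.07 by TMM-normalised CPM. On that second scale, 2.51% of all detected genes were higher by at least 2-fold. The median log2 ratio was -0.19 over the signalling genes and 0.02 over the processing genes, beside -0.21 over all detected genes.

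**Figure D5:**
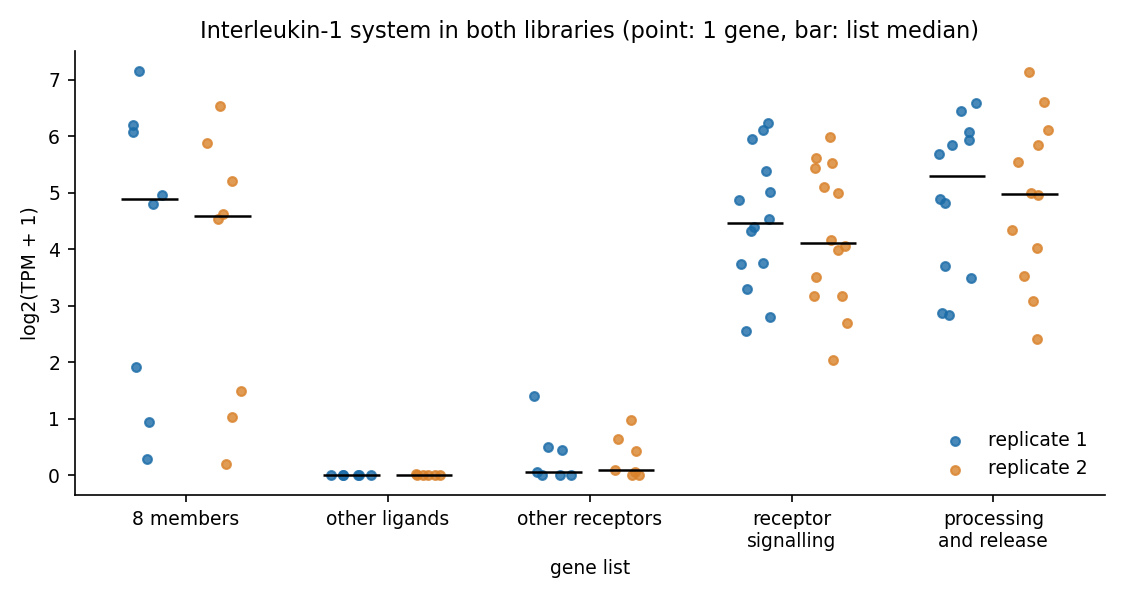
RSEM-layout log2(TPM + 1) of each gene in replicate 1 and replicate 2 for the 8 members and 4 lists of related genes, with bars at list medians. Signalling and processing genes lie at 3.12 to 140.1 TPM, and the other ligands and receptors at 1.65 TPM or less.

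The genes most alike to Il1b in level were Lpl, Ppp1r10 and Scd2, which had the smallest distances on the log2(TPM + 1) scale over the 2 libraries among 8397 protein-coding genes with at least 100 counts in each. Lpl, which encodes lipoprotein lipase, had 155 and 61.3 TPM at a distance of 0.16. Ppp1r10, which encodes a nuclear regulator of protein phosphatase 1, had 123.7 and 59.4 TPM at 0.20. Scd2, a fatty acid desaturase gene, had 161 and 64.5 TPM at 0.25. Likeness over 2 libraries covers a level and 1 ratio only.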

How the data were processed

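Ribosomal-RNA-depleted nucleoplasmic RNA was quantified in 2 libraries of 1 group. Per the notes deposited with the files, the authors took expected counts and TPM of genes and transcripts from transcriptome alignments (mm10, GENCODE M21). The deposited posterior mean TPM has interval bounds on a signal scale without a fixed total, per the file headers. Another deposited table gives transcripts only, with estimated counts and TPM derived from the reads directly. The sources used here do not give the programs or the strand setting. The text names the tables RSEM-layout and kallisto-layout after their columns.

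Entries outside the annotation (0.28% and 0.064% of counts) were left out. Levels were compared within a library as log2(TPM + 1), a pseudocount that understates differences among low genes. Ratios between libraries used genes with at least 10 expected counts in each. TMM factors came from edgeR 4.0.16 and size factors from DESeq2 1.42.0 in R 4.3.3, on counts rounded to whole numbers. The rest used Python 3.11.15, pandas 2.3.3 and numpy 2.4.6. The ratio step was tested on simulated data with 200 changed genes. The simulated counts had sampling noise only, less than the spread between the real libraries, so the calls were not tested at that spread. No test between groups was possible.

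Members and lists were chosen with earlier results of these data known. Named genes were the 8 members, the 3 highest members by mean TPM of each related list, and the 3 genes nearest Il1b. Transcripts with at least 5% of a member's TPM in either library were described. Other genes and transcripts named were chosen after their values were seen. Counts limit precision: 3 counts are 1.49e-05% of replicate 1 and 1.53e-05% of replicate 2, for counting error only.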

Additional observations from a re-analysis of the deposited data

How the results depend on the processing

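Of 68 alternative values for the comparisons and counts above, 51 moved by no more than the spread between the libraries (counts by no more than 1.5 times), and none changed the sign of a mean difference. The 68 include values from 1 library alone. For a difference or a share, such a value cannot move past that spread, so it does not show robustness to processing. With the kallisto-layout TPM, Il1b minus Il1a was 1.17, Il1r2 minus Il1r1 0.59 and Il1rap minus Il1r1 0.63, and 5 members were lower in replicate 2 by 2-fold. The median log2 ratio over all 14596 detected genes was -1.57 on that scale, itself past 2-fold, so this count does not set the members apart. There, protein-coding genes held 22.8% (replicate 1) and 5.27% (replicate 2) of all TPM, so its unscaled ratios compare unequal totals. Rescaled to protein-coding genes, a setting chosen after seeing the data, it gave 1.23 for Il1b minus Il1a, 1.496 for Il1r2 minus Il1r1 and 0 members lower by 2-fold. With the RSEM-layout TPM on the protein-coding scale, Il1r2 minus Il1r1 was 1.44 and Il1rap minus Il1r1 2.44. With a pseudocount of 0.1 these were 1.94 and 3.05, and 2 members, Il1b and Il1a, were lower by 2-fold. The share of all detected genes lower by that much was not counted at that pseudocount. Il1b minus Il1a was 0.18 with protein-coding transcripts only. The shares outside protein-coding transcripts were 19.0% of counts and 53.8% of kallisto-layout TPM for Il1b, and 8.72% and 40.3% for Il1rn. The cause was not tested where none is given. Depth limits Il1r1 and Il1r2, with at most 20 counts in a library in the RSEM-layout table (73 and 33 for Il1r1 and 30.0 in each for Il1r2 in the kallisto-layout table).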

Other observations

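Genes on the opposite strand at Il1a, Il1b and Il1r2 had counts that differed between the tables. A gene within Il1r2 on the same strand is given too. These genes were chosen after their values were seen. Gm14023, which overlaps Il1a, was at 31.5 and 17.6 TPM in replicates 1 and 2, with a log2 ratio of -0.81, beside -0.99 for Il1a. Its counts were 976 and 610 in the RSEM-layout table and 2450 and 1201 in the kallisto-layout table. The kallisto-layout table held more counts in all, 34774610 and 27988909 against 20196408 and 19588980, so part of such a difference lies in the totals. Il1bos, which begins in intron 2 of Il1b and runs out past the start of that gene, had 9 and 13 counts in the RSEM-layout table and 322 and 159 in the kallisto-layout table. Gm16894, opposite Il1r2 and with no exonic overlap, had 7 and 9 counts in the former and 82 and 40 in the latter. Gm37347, an unclassified single-exon entry within Il1r2 on the same strand, had 1.08 and 0.35 TPM, beside 0.93 and 1.04 TPM for Il1r2.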
